A study of Drosophila melanogaster with 6 samples.

Results

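The genes described here encode the *Drosophila* insulin-like and relaxin-like peptides *Ilp1* to *Ilp8*, the secreted insulin-binding protein *ImpL2* and the relaxin-like peptide receptor *Lgr3*. These 10 genes were chosen by name among the 17558 genes of the deposited expression table. Of the 10, 9 were among the 13416 genes of the deposited comparison table and 8 had a mean of at least 10 normalized counts, the minimum for testing. Bulk RNA was sequenced from the dissected larval central nervous system (CNS) of *Drosophila melanogaster* at the 3rd instar. The control strain was w1118. The mutant, Alk-YS, was homozygous for an edit of the endogenous *Alk* gene, which encodes a receptor tyrosine kinase, that exchanges a kinase-domain tyrosine for serine and adds silent changes nearby. The study classed this allele as gain-of-function, from smaller pupae and from ectopic Alk signalling in some embryos. There were 3 libraries in each of the 2 groups, and each library pooled the CNS of 40 to 45 untreated larvae whose sex was not given. The edit was made by CRISPR/Cas9 in embryos of a w1118 stock that carried a germline Cas9 transgene and a *yellow* mutation. The line was established from screened single males, so differences between the stocks other than the edit cannot be told apart from it. The study's methods list the Cas9 stock as wild-type control, whereas the labels give w1118.

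Insulin-like peptides of the fly are secreted hormones that bind 1 insulin receptor, InR, and couple nutrition to growth. In the larval brain a small paired cluster of median neurosecretory cells, the insulin-producing cells (IPCs), makes *Ilp2*, *Ilp3* and *Ilp5*. Glia and the fat body make *Ilp6*, a few ventral nerve cord neurons make *Ilp7*, and growing or damaged imaginal discs make *Ilp8*. *Ilp8* is related to relaxin and signals through Lgr3 in a few brain neurons to delay metamorphosis. ImpL2 binds insulin-like peptides outside the cell and limits their action. Alk and its ligand Jeb have been linked to *Ilp5* expression in the IPCs, so the question asked of these data was whether transcripts of the peptides and their binding partners differed when *Alk* was mutated.

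The genes *Ilp1* to *Ilp5* lie together on 3L within 25.5 kb, from 9798420 to 9823897 in the BDGP6 assembly. *Ilp1* (9798420 to 9799050) and *Ilp2* (9799698 to 9800440) are on the plus strand. *Ilp3* (9801298 to 9802120), *Ilp4* (9803399 to 9804263) and *Ilp5* (9823349 to 9823897) are on the minus strand. *Ilp6* (X, 2331493 to 2334658, minus strand) and *Ilp7* (X, 3667621 to 3668845, plus strand) are on the X chromosome. *Ilp8* (3L, 17029812 to 17032080) and *ImpL2* (3L, 4224006 to 4236147) are on the minus strand, and *Lgr3* (3R, 25665809 to 25677214) is on the plus strand. Exons of *Ilp2* to *Ilp6* overlap no other annotated exon, and those of *Ilp7* and *Ilp8* share at most 26 bases with any other gene. Exons of *Ilp1* share 258 of 631 bases with CG32052 on the same strand, and those of *ImpL2* share 1651 of 2667 bases with CG46460 on the same strand. Exons of *Lgr3* share 893 of 3005 bases with a long non-coding RNA gene, lncRNA:CR45225, on the opposite strand. Of these overlapping genes, CG32052 was in the comparison table, and CG46460 and lncRNA:CR45225 were not. How strand and reads shared by genes were treated in counting is not given in the sources used here. The counts of *Ilp1*, *ImpL2* and *Lgr3* may therefore include reads of these genes or lack shared reads, and are uncertain to that degree.

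Reads assigned to genes numbered between 18770029 and 22333967 per library, and a count of 0 at these depths allowed up to 3 reads. This limit covers counting error only, whereas the intervals given below with limma fits rest on differences between libraries. *Alk* itself had 2136 to 2989 normalized counts in control and 2472 to 2696 in Alk-YS, and the groups overlapped (adjusted p 0.921 in limma). Its ligand gene *jeb* had 1172 to 2107 in control and 1357 to 1537 in Alk-YS (adjusted p 0.972 in limma). Gene counts do not show an exchange of bases, so these levels do not check the genotype labels. A normalized count is the number of reads divided by the size factor of its library. The 8 CNS markers examined, *elav* and *repo* among them, were present in all libraries, with summed levels of 40478 to 46864 normalized counts in control and 39516 to 44378 in Alk-YS. Their log2 fold changes in limma were positive for 4 (*elav*, *dpn*, *mira* and *nrv2*) and negative for 4 (*nSyb*, *brp*, *Syt1* and *repo*). None was called. With an unadjusted p under 0.05 in limma, as 13.8% of all genes had, were *brp* (log2 fold change -0.29), *dpn* (0.44) and *mira* (0.52). Transcripts of other tissues were present too. The summed level of 7 fat body markers ran from 13122 to 127578 in control and from 3254 to 34918 in Alk-YS. Of these, *Fbp2* was called, with 536.4 to 5126 normalized counts in control and 41.5 to 57.7 in Alk-YS. The sum of 6 muscle markers, of which *Mlc1* and *Mlc2* were called lower, was lower in every Alk-YS library (1501 to 2101) than in any control library (2755 to 3668). The sum of 6 gut markers was 5869 or more in control replicate 3 and in Alk-YS replicates 1 and 3, and at most 36.0 in the other libraries. With limma, 287 of 9668 genes tested (2.97%) passed an adjusted p of 0.05, 122 of them higher in Alk-YS (1.26%) and 165 lower (1.71%).

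Levels of different genes were compared as FPKM, which corrects for gene length. *Ilp2* was the most abundant of the 10 transcripts, at 92.0 FPKM over the 6 libraries with a range of 71.3 to 108.4. Its level exceeded that of 94.4% of genes with any signal. *ImpL2* followed at 59.1 FPKM (46.7 to 66.6), and its range overlapped neither that of *Ilp2* nor that of *Ilp3*. *Ilp3* at 29.2 FPKM (22.5 to 34.9) and *Ilp5* at 27.7 FPKM (18.4 to 46.0) could not be ordered, since *Ilp3* was the higher in only 4 of 6 libraries. *Ilp6* had 16.8 FPKM (13.7 to 21.6) and was below *Ilp5* in all 6 libraries, although the ranges overlapped. A gap then separated these from *Ilp1* at 2.35 FPKM (1.24 to 3.62), *Ilp7* at 1.19 FPKM (0.59 to 1.67) and *Lgr3* at 0.664 FPKM (0.442 to 0.993), whose neighbouring ranges overlapped. *Ilp8* had at most 0.61 FPKM. *Ilp4*, which is known mainly from the embryo, was listed at 0 FPKM in all 6 libraries, where 3 reads would have given 0.165 to 0.197 FPKM. Together *Ilp2*, *Ilp3* and *Ilp5* made up 84.7% to 91.2% of the summed FPKM of the 8 peptide genes in control libraries and 85.2% to 90.2% in Alk-YS libraries.

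None of the 8 genes tested passed the threshold in either direction, against a background of 2.97% of genes called (1.26% higher and 1.71% lower in Alk-YS). The number called was also 0 in DESeq2, which called 6.36% of all genes, and in the other 15 alternative analyses (edgeR, other scalings and filters, left-out libraries). A single one of the 8, *Ilp3*, had an unadjusted p under 0.05 in limma, as did 13.8% of all genes. Its 2 groups were also the only ones not to overlap among the 9 genes with counts, where 19.5% of all genes tested had groups without overlap. The signs were mixed, 3 positive and 5 negative, and the median log2 fold change was -0.04 against 0.01 over all genes tested. In bulk RNA, fewer cells of a type cannot be told apart from less RNA per cell. The intervals given with each gene show the range of change that these libraries left possible.

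**Figure D1:**
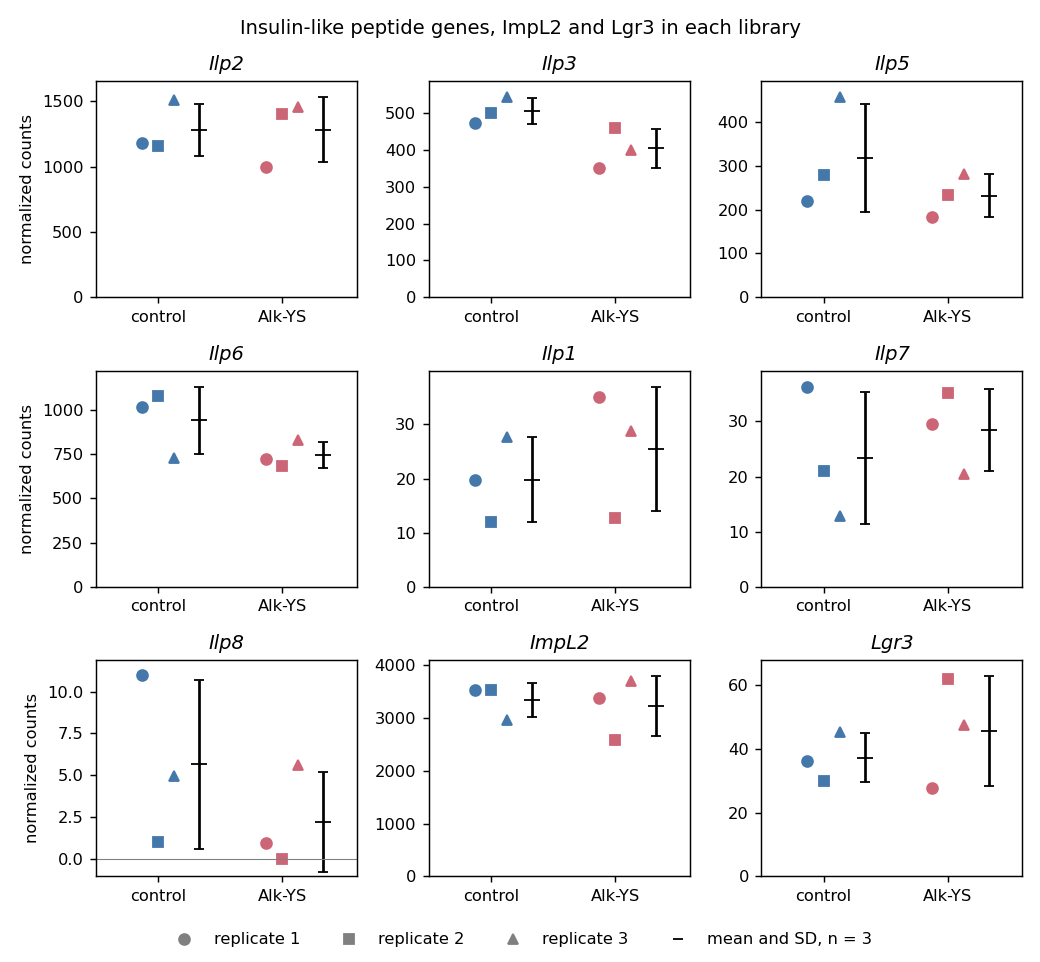
Normalized counts (y axis) of the 9 genes of the comparison table in control (blue) and Alk-YS (red) libraries. Marker shapes give the replicate number, and the black bar gives the mean and SD of 3 libraries (the bar of *Ilp8* reaches below 0 because its SD exceeds its mean). *Ilp3* is the only gene whose groups do not overlap, with 473.2 to 544.3 in control and 352.2 to 460.2 in Alk-YS.

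*Ilp2*, the most abundant IPC peptide, had 1176, 1155 and 1509 normalized counts in control replicates 1 to 3. In Alk-YS replicates 1 to 3 it had 994.0, 1399 and 1452. The groups covered the same range, with control replicate 3 the highest and Alk-YS replicate 1 the lowest of all 6 libraries. *Ilp2* had a log2 fold change of -0.01 (SE 0.17) and an adjusted p of 0.991 in limma, and the 95% interval ran from 0.755-fold to 1.31-fold. The exact two-sided permutation p of *Ilp2* was 1.0, where 3 libraries against 3 cannot go below 0.1.

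*Ilp3*, another IPC peptide, had 473.2, 501.0 and 544.3 normalized counts in control replicates 1 to 3 and 352.2, 460.2 and 400.9 in Alk-YS replicates 1 to 3. Every Alk-YS library lay below every control library, a pattern shown by 10.1% of all genes tested. The mean was 506.2 ± 35.9 in control and 404.4 ± 54.1 in Alk-YS (SD, n = 3). This was a log2 fold change of -0.33 (SE 0.13), or 0.796-fold with an interval from 0.643 to 0.986. The unadjusted p was 0.0392 and the adjusted p was 0.316 in limma, so *Ilp3* did not pass over all genes. Its exact permutation p was 0.1, the smallest that this design allows.

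*Ilp5*, the IPC peptide tied to Alk in earlier work, had 219.0, 278.0 and 456.7 normalized counts in control replicates 1 to 3. In Alk-YS replicates 1 to 3 it had 182.6, 232.7 and 280.0. Alk-YS replicate 3 reached the level of control replicate 2, and the control mean of 317.9 ± 124 (SD, n = 3) held 1 high library, control replicate 3. Its log2 fold change was -0.41 (SE 0.28) with an adjusted p of 0.633 in limma and an interval from 0.48-fold to 1.19-fold. Without control replicate 3 the log2 fold change of *Ilp5* was -0.11, and without control replicate 1 it was -0.64. *Ilp5* lies within CG43897, on the opposite strand and without shared exons. That gene, CG43897, had 161.4 to 336.0 normalized counts in control and 99.3 to 157.2 in Alk-YS, with an adjusted p of 0.227 in limma.

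A ratio of 2 genes within a library does not depend on how libraries were scaled against each other. The ratio of *Ilp3* to *Ilp2* normalized counts was 0.402, 0.434 and 0.361 in control replicates 1 to 3. It was 0.354, 0.329 and 0.276 in Alk-YS replicates 1 to 3, so that the groups did not overlap. Of single genes tested, 19.5% had groups without overlap, and the share among other ratios was not computed. The difference was -0.32 on the log2 scale, with an exact two-sided permutation p of 0.1, the smallest possible. It is not a result separate from that of *Ilp3* alone (log2 fold change -0.33), since *Ilp2* was at -0.01. The ratio of *Ilp5* to *Ilp2* was 0.186 to 0.303 in control and 0.166 to 0.193 in Alk-YS, and the groups overlapped (exact permutation p 0.2). The ratio of *Ilp5* to *Ilp3* was 0.619 ± 0.196 in control and 0.574 ± 0.108 in Alk-YS (SD, n = 3; exact permutation p 0.8). As a share of the summed FPKM of the 8 peptide genes, *Ilp2* made up 49.7% to 52.3% in control libraries and 54.2% to 59.1% in Alk-YS libraries. The shares of *Ilp3* (18.3% ± 1.29 against 16.3% ± 1.67), *Ilp5* (17.5% ± 4.31 against 14.5% ± 1.09) and *Ilp6* (10.8% ± 3.33 against 9.41% ± 1.47; SD, n = 3) overlapped between the groups. Shares of a total are not independent, so the higher share of *Ilp2* is the counterpart of lower shares of other genes. The 3 ratios were the only ones computed, and the shares were not tested.

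**Figure D2:**
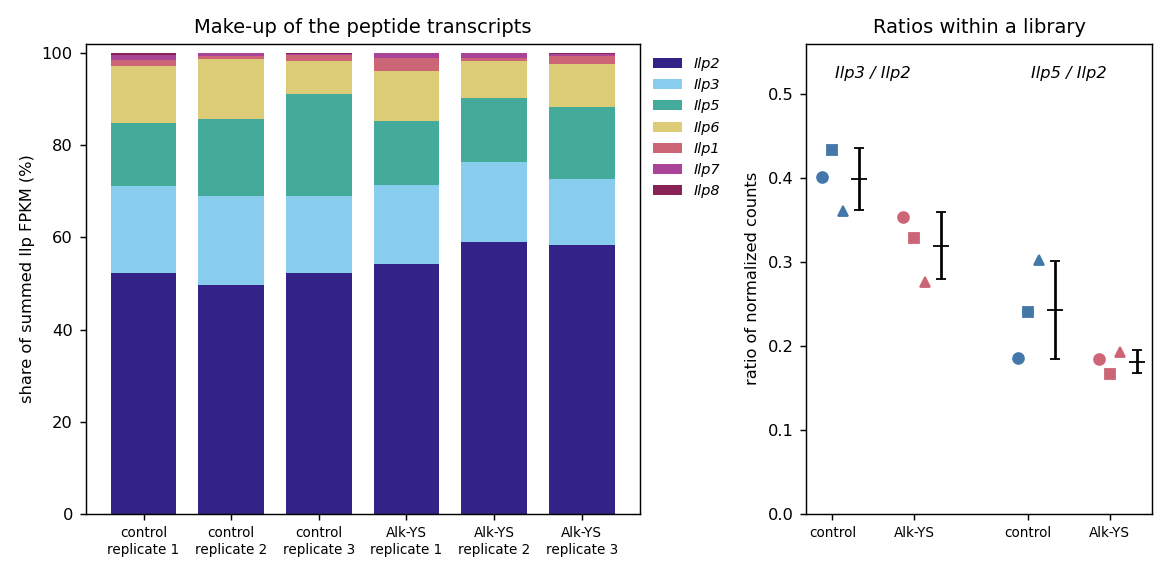
Left, share of each gene (stacked bars, in % of the summed FPKM of *Ilp1* to *Ilp8*) in the 6 libraries, in which *Ilp2* takes 49.7% to 52.3% in control and 54.2% to 59.1% in Alk-YS. Right, ratios of normalized counts within a library (no unit) with marker shapes for replicates and black bars for the mean and SD of 3 libraries, in which the *Ilp3* to *Ilp2* ratio is lower in every Alk-YS library than in any control library.

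The IPC genes *Ilp2*, *Ilp3* and *Ilp5* were all highest in control replicate 3 and all lowest in Alk-YS replicate 1. The libraries in between were ordered differently. Over the 6 libraries Pearson r was 0.51 for *Ilp2* with *Ilp3*, 0.74 for *Ilp2* with *Ilp5* and 0.73 for *Ilp3* with *Ilp5*. What follows is a description over 6 libraries in which these genes share the highest and the lowest. The genes whose log2 values most resembled the mean of *Ilp2*, *Ilp3* and *Ilp5* were PPO1 (Pearson r = 0.987), CG5322 (r = 0.977) and CG5210 (r = 0.977). PPO1, which encodes a prophenoloxidase of blood cells, had 3536 normalized counts in control replicate 3, 117.1 in Alk-YS replicate 1 and 474.3 to 778.3 in the others. The summed level of 5 blood cell markers was highest in the same library, control replicate 3 (9749 normalized counts), and lowest in Alk-YS replicate 1 (4221). The 5 markers did not follow 1 pattern. *Hml*, *Pxn* and *Sr-CI* were highest in control replicate 3, whereas *eater* was highest in Alk-YS replicate 3 (1121) and had a positive log2 fold change (0.85, adjusted p 0.272 in limma). The phagocytosis receptor gene *NimC1* was the 1 marker called, lower in Alk-YS, with 298.2 to 359.0 in control and 20.3 to 45.6 in Alk-YS (adjusted p 0.00143 in limma), and control replicate 3 was the lowest of its control libraries. The part of blood cells in the levels of the IPC genes was not tested.

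*Ilp6*, the peptide gene of glia and fat body, had 1018, 1081 and 726.4 normalized counts in control replicates 1 to 3. In Alk-YS replicates 1 to 3 it had 723.8, 684.4 and 829.7. The groups overlapped through control replicate 3, which lay below Alk-YS replicate 3 and close to Alk-YS replicate 1. *Ilp6* had a log2 fold change of -0.32 (SE 0.16), or 0.801-fold with an interval from 0.616 to 1.04, and the adjusted p was 0.475 in limma. Without control replicate 3 the log2 fold change of *Ilp6* was -0.50 and the adjusted p was 0.071 in limma. Without control replicate 2 they were -0.21 and 0.8. Control replicate 3 also had the lowest summed fat body markers of the control group (13122 against 54883 and 127578 normalized counts), whereas Alk-YS replicate 3 had the lowest of all 6 libraries (3254) and the highest *Ilp6* of its group. The glial marker *repo* had 1652 to 1731 normalized counts in control and 1360 to 1678 in Alk-YS. The part of attached fat body tissue in the *Ilp6* values was not tested.

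*Ilp7* and *Ilp1* were read at low levels. *Ilp7*, which is related to relaxin and made by a few neurons of the ventral nerve cord, had 36.3, 21.0 and 12.8 normalized counts in control replicates 1 to 3 and 29.5, 35.2 and 20.5 in Alk-YS replicates 1 to 3. Both groups spanned similar values, and the interval of its fold change was wide, from 0.622 to 2.63 (adjusted p 0.831 in limma). *Ilp1*, which the IPCs express mainly at the pupal stage, had 19.8, 12.0 and 27.6 normalized counts in control and 35.0, 12.8 and 28.8 in Alk-YS, in order of replicates. Its interval ran from 0.559-fold to 2.77-fold (adjusted p 0.873 in limma). A 2-fold higher level in Alk-YS thus lay within both intervals.

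*Ilp8* was close to absent. It had 10, 1 and 5 reads in control replicates 1 to 3 and 1, 0 and 6 reads in Alk-YS replicates 1 to 3, was below the minimum mean of 10 normalized counts and was not tested. The groups overlapped, with 16 reads in control and 7 in Alk-YS in total. Its receptor gene *Lgr3* had 36.3, 30.0 and 45.3 normalized counts in control replicates 1 to 3 and 27.7, 61.9 and 47.4 in Alk-YS replicates 1 to 3. The lowest and the highest library were both Alk-YS. *Lgr3* had a log2 fold change of 0.24 (SE 0.36) with an interval from 0.662-fold to 2.09-fold and an adjusted p of 0.868 in limma, and without Alk-YS replicate 2 its sign turned (-0.02).

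*ImpL2*, the secreted binding protein, had 3521, 3526 and 2958 normalized counts in control replicates 1 to 3. In Alk-YS replicates 1 to 3 it had 3373, 2585 and 3688. The lowest and the highest library were again both Alk-YS. For *ImpL2* the log2 fold change was -0.06 (SE 0.14), with an interval from 0.759-fold to 1.21-fold and an adjusted p of 0.918 in limma. Over the control group *ImpL2* and *Ilp2* had 9731 and 3757 reads. Their directions changed with the library left out: *ImpL2* turned to 0.085 without Alk-YS replicate 2, and *Ilp2* to 0.17 without Alk-YS replicate 1 and 0.12 without control replicate 3.

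**Figure D3:**
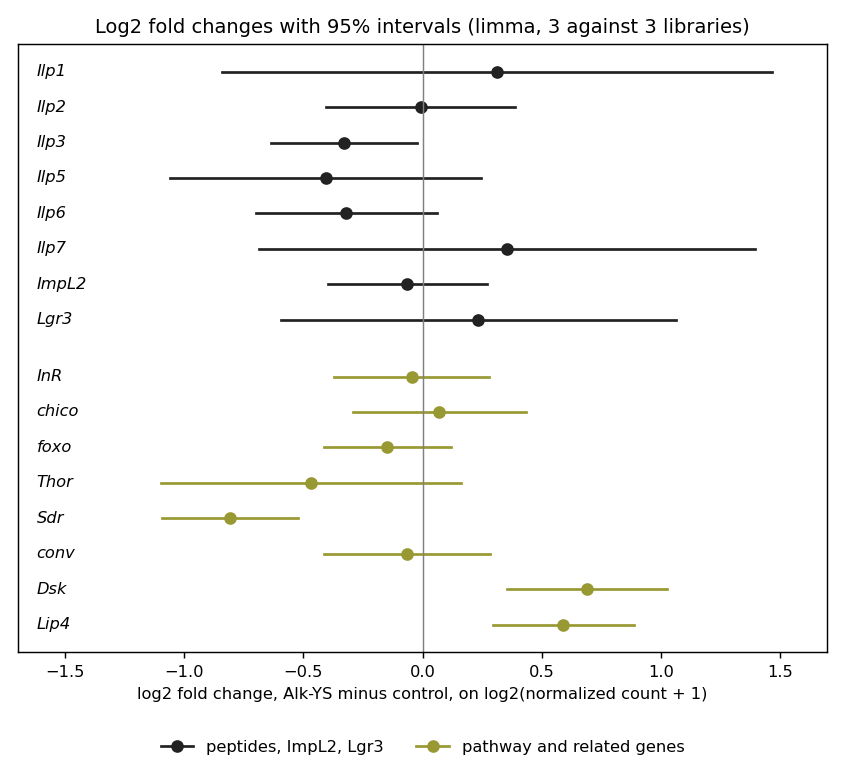
Log2 fold changes on log2(normalized count + 1), Alk-YS minus control (x axis), with 95% intervals from limma over 3 against 3 libraries, for the 8 tested peptide, binding protein and receptor genes (black) and 8 pathway and related genes (olive). The interval of *Sdr* lies farthest below 0, that of *Ilp3* ends just below 0, and those of *Dsk* and *Lip4* lie above 0.

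The insulin pathway was read from a list of 21 genes, all of them tested. It held the receptor, genes that act inside the cell, and the secreted binding partners *Sdr* and *conv*. The insulin receptor gene *InR* had 2443 ± 493 normalized counts in control against 2337 ± 70.9 in the mutant (SD, n = 3; adjusted p 0.945 in limma), a log2 fold change of -0.05. Its adaptor *chico* (log2 fold change 0.07, adjusted p 0.917 in limma) and the transcription factor *foxo* (-0.15, adjusted p 0.685), which insulin signalling keeps out of the nucleus, did not pass either. *Akt*, the kinase between the receptor and FOXO, had 4648 to 4989 normalized counts in control and 4024 to 4400 in Alk-YS (log2 fold change -0.19, adjusted p 0.343 in limma). All Alk-YS libraries were below all control libraries for *Akt*, as for 10.1% of all genes. Of the 21 genes, 1 was called, the secreted *Sdr*, where 2.97% of all genes were. Of the 21, 10 were positive and 11 negative, and their median was -0.03 against 0.01 over all genes.

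The gene called was *Sdr* (3R, 14918628 to 14923083, plus strand), which encodes a secreted decoy of the insulin receptor that binds insulin-like peptides outside the cell. *Sdr* had 486.4, 596.1 and 573.8 normalized counts in control replicates 1 to 3 and 296.9, 328.8 and 317.2 in Alk-YS replicates 1 to 3. All Alk-YS libraries lay well below all control libraries. *Sdr* fell by 0.81 on the log2 scale (SE 0.12), with an adjusted p of 0.0154 in limma and 5.62e-06 in DESeq2 on recovered reads. The call was lost in limma when control replicate 2 (adjusted p 0.0766), Alk-YS replicate 1 (0.0691) or Alk-YS replicate 3 (0.068) was left out, while over all 16 alternatives the log2 fold change stayed between -0.90 and -0.75. The other secreted partner on the list was *conv*, which forms a complex with ImpL2 and insulin-like peptides. *conv* had 479.3 ± 87.0 normalized counts in control and 454.7 ± 36.1 in Alk-YS (SD, n = 3; adjusted p 0.921 in limma). Among the 3 genes for secreted binding proteins, *ImpL2*, *Sdr* and *conv*, *Sdr* was the one that passed the test, and whether its change differed from theirs was not tested.

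Genes of the IPCs and of the signals that act on them were read from a list of 25, of which 24 were tested. None was called in limma, 4 had an unadjusted p under 0.05, against 13.8% of all genes, and the median log2 fold change was 0.03. *Dsk* (3R, 4189692 to 4190260, minus strand), the precursor of the satiety peptides drosulfakinins, is made in IPCs and in other brain neurons. It had 286.1, 317.0 and 242.1 normalized counts in control replicates 1 to 3 and 467.5, 404.6 and 490.2 in Alk-YS replicates 1 to 3. The groups did not overlap, with all Alk-YS libraries the higher, as for 9.41% of all genes. *Dsk* had a log2 fold change of 0.69 (SE 0.15), and its adjusted p of 0.0513 in limma just missed the threshold. DESeq2 on recovered reads gave *Dsk* an adjusted p of 0.00259, limma on FPKM gave 0.0312, and the other 14 alternatives gave 0.0516 to 0.211. The sign of *Dsk* was opposite to that of *Ilp3* and *Ilp5*, and the difference between them was not tested. Bulk RNA does not separate *Dsk* transcripts of IPCs from those of other neurons. Higher levels were not limited to genes of this list. The peptide hormone genes *Nplp1* (log2 fold change 0.62, adjusted p 0.0107 in limma), *Hug* (0.82, 0.0232) and *Pburs* (1.18, 0.0355), which are not on it, were called higher. *Nplp4* was lower and not called (-2.07, 0.0751). Such genes were not examined here as a set. The other genes of the list with an unadjusted p under 0.05 were *Rx*, a homeobox transcription factor gene (log2 fold change 0.45, adjusted p 0.272 in limma), *Oamb*, an octopamine receptor gene (0.48, 0.251), and *PK2-R1*, a receptor gene for hugin peptides (0.52, 0.214).

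Some targets of FOXO, *Thor* among them, are known to be induced in fly tissues when insulin signalling is low. The 7 genes listed were *InR*, *Thor*, *Lip4*, *bmm*, *daw*, *NLaz* and *Myc*, and no direction was set in advance for each. None of the 7 listed genes was called in limma, with 3 positive and 4 negative log2 fold changes and a median of -0.05. *Thor*, the 4E-BP translation inhibitor, had 3176, 4230 and 2172 normalized counts in control replicates 1 to 3 and 2141, 1710 and 3018 in Alk-YS replicates 1 to 3 (log2 fold change -0.47, adjusted p 0.547 in limma). Its groups overlapped. *Lip4*, a lipase gene, had 683.3, 887.1 and 659.5 in control and 1080, 1136 and 1116 in Alk-YS. These groups did not overlap, with all Alk-YS libraries the higher, as for 9.41% of all genes. For *Lip4* the log2 fold change was 0.59, and adjusted p-values were 0.0565 in limma, 0.00301 in DESeq2 on recovered reads and 0.0318 in limma without control replicate 2. The other 14 alternatives gave *Lip4* adjusted p-values of 0.0534 to 0.2 and did not call it.

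**Figure D4:**
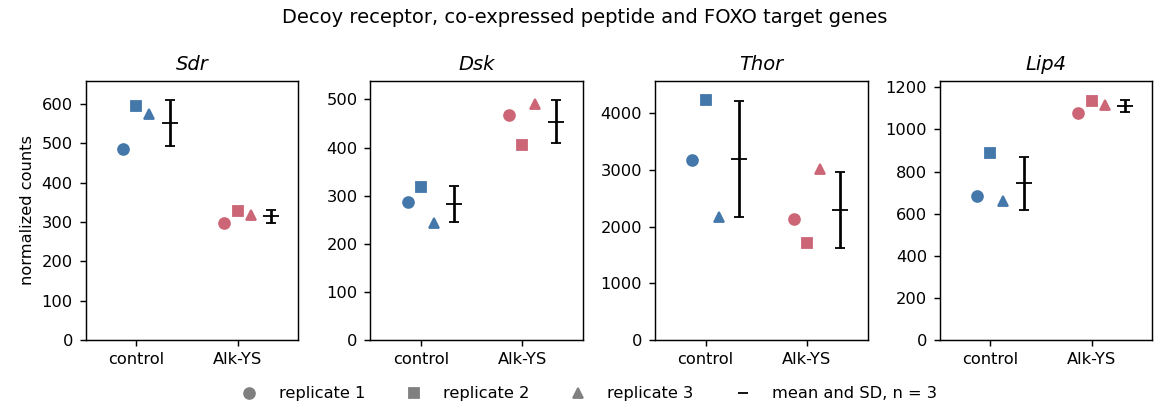
Normalized counts (y axis) of the decoy receptor gene *Sdr*, the peptide gene *Dsk* of IPCs and other brain neurons, and the FOXO targets *Thor* and *Lip4* in control (blue) and Alk-YS (red) libraries, with black bars for the mean and SD of 3 libraries. *Sdr* is lower and *Dsk* and *Lip4* are higher in all Alk-YS libraries, and *Thor* overlaps.

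Genes around the *Ilp8* and *Lgr3* axis were read from a list of 6: the related receptor genes *Lgr1*, *rk* and *Lgr4*, the brain hormone *Ptth* and its receptor *tor*, and *Nos*. None was called in limma. All 6 were positive, where 4993 of the 9668 genes tested were, and the median log2 fold change was 0.38 against 0.01 over all genes. *Lgr1*, a glycoprotein hormone receptor gene, had 407.5 normalized counts in Alk-YS replicate 1, 20.3 and 17.7 in Alk-YS replicates 2 and 3 and 4.0 to 12.1 in control. All Alk-YS libraries were above all control libraries, as for 9.41% of all genes and also for *rk*. For *Lgr1* the excess was by far the largest in Alk-YS replicate 1, and the log2 fold change was 2.90 (adjusted p 0.294 in limma). *rk*, the receptor gene for the moulting hormone bursicon, had 68.0 to 121.0 normalized counts in control and 147.0 to 160.1 in Alk-YS (log2 fold change 0.61, adjusted p 0.308 in limma). *Ptth* had 114.8 ± 16.0 in control and 136.8 ± 20.9 in Alk-YS (SD, n = 3; adjusted p 0.685 in limma), with overlap.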

How the data were processed

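The submitters' processing notes name HISAT2 2.0.5, featureCounts 1.5.0-p3 and DESeq2 1.20.0, with no order or role given. The deposited comparison table gives each library a signal value: reads per gene scaled by the size factor of that library (normalized counts). It also holds the authors' own log2 fold change and p-values, which were not used. The deposited FPKM table gives FPKM, fragments scaled by gene length and library size, by the authors. Of 13416 gene IDs in the comparison table, 13170 were found in the supplied BDGP6 annotation (Ensembl), from which coordinates and exon overlaps were taken, and 98.4% of these had the same coordinates. *Ilp1* did not, since its model in the file is 465 bases long against 631 in the annotation.

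The test took genes whose 6 libraries averaged 10 normalized counts or more and used limma 3.58.1 in R 4.3.3 on log2(normalized count + 1), with a mean-variance trend, two-sided, with Benjamini-Hochberg adjustment over all 9668 genes. Fold changes on this scale understate the change of genes with low counts. Single genes and ratios received an exact permutation test. Dividing each library by its smallest value above 0 gave whole reads for 100% of values (within 0.001). An automatic check accepted 5 libraries but not control replicate 2, whose step is too close to 1, so DESeq2 1.42.0 and edgeR 4.0.16 on these reads were alternatives only. The other alternatives were TMM scaling, the FPKM table with a pseudocount of 0.1, pseudocounts of 0.1 and 5, no filter, a minimum mean of 50, no trend, a replicate block and leaving out each library. The same alternatives for *Sdr*, *Dsk* and *Lip4* were added after seeing the data. The scripts were tested on simulated data.

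All 10 members were named, with every list gene called in the fit *Alk* and *jeb*, and *InR*, *chico*, *foxo*, *Thor*, *Dsk*, *Sdr* and *conv* whatever their values, and the 3 genes most correlated with the IPC genes. *Lip4*, *Akt*, *Rx*, *Oamb*, *PK2-R1*, *Lgr1*, *rk*, *Ptth*, *brp*, *dpn*, *mira*, *Nplp1*, *Hug*, *Pburs*, *Nplp4* and CG43897 were chosen after their values were seen. The members and lists were chosen with earlier results of these data known. Libraries of a group differed by a chi-square per gene of 13.3 to 99.9, more than sampling noise. The labels call them biological replicates and say nothing of shared days or batches. Of the other marker lists, the summed levels of 7 ring gland, 6 imaginal disc and 6 salivary gland markers overlapped between the groups, and of these 1 gene, the salivary *Sgs4*, was called (lower).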

Additional observations from a re-analysis of the deposited data

How the results depend on the processing

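The number of tested insulin-like peptide, *ImpL2* and *Lgr3* genes called was 0 under all 16 alternatives, among which the adjusted p of *Ilp3* ran from 0.24 to 0.696 and that of *Ilp6* from 0.0705 to 0.8. The number of all genes called was 287, and 612 with DESeq2 on recovered reads. It ran from 105 to 336 when single libraries were left out, and the number called on the insulin pathway list then ran from 0 to 1. The log2 fold change of *Ilp2* ran from -0.11 to 0.17, that of *ImpL2* from -0.171 to 0.085 and that of *Lgr3* from -0.017 to 0.551 over single left-out libraries, and these were the members whose sign changed. The directions of *Ilp1*, *Ilp3*, *Ilp5*, *Ilp6* and *Ilp7* held in all alternatives run for them. With a minimum mean of 50, *Ilp1*, *Ilp7* and *Lgr3* were not tested. Whether the replicate numbers pair the libraries was not settled. The deviations of same-numbered libraries correlated at -0.121, 0.354 and 0.408, and differently numbered libraries were not compared in this way. With the replicate number as a block, 284 genes and 0 of the members were called. Depth limits *Ilp1*, *Ilp7*, *Ilp8* and *Lgr3*, with 139 reads or fewer per group.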
